A study of Mus musculus with 26 samples.

Results

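The comparison described here set RNA of nonpermissive cochlear supporting cells against RNA of control supporting cells at 48 h, in 3 nonpermissive and 2 control libraries, 5 of the 26 samples of the series. Libraries were taken by their labels, and every gene was considered: 13411 genes had enough counts to be tested. Supporting cells came from organ cultures of postnatal day 1 mouse cochleae, and every culture, control ones included, received the growth factors EGF and FGF. Nonpermissive cells came from cultures given DAPT for 48 h. They carried a tdTomato label (TdT) set by Lfng-CreER, a recombinase driven by the supporting cell gene Lfng, and lacked GFP from an Atoh1 reporter. Control cells came from cultures given the solvent DMSO for 48 h and likewise carried TdT alone. A further group is used where a difference from it was tested: 3 permissive libraries, from DAPT cultures, whose cells carried both TdT and Atoh1-GFP. Separate RNA libraries from 24 h, 3 with DAPT and 3 with DMSO, came from cells sorted by Lfng-GFP. The labels do not say that replicates came from separate animals, and what a p-value weighs is then the scatter among libraries, part of which may be technical. Lfng, the gene behind both sort labels, itself modifies Notch receptors.

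In the cochlea, hair cells carry Notch ligands, and the receptor on neighbouring supporting cells is cut by gamma-secretase once bound. The freed receptor fragment enters the nucleus with the DNA-binding protein RBPJ and turns on repressors of the Hes and Hey families, which keep Atoh1, the starter gene of hair cell development, silent. DAPT inhibits gamma-secretase. In neonatal cochleae this lets a share of the supporting cells turn into hair cells, while others keep their form. The comparison sets cells of DAPT cultures that lacked the Atoh1 reporter signal against control supporting cells. Cells with that signal had been sorted away. An effect of the drug and the selection of cells therefore cannot be told apart.

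The nonpermissive libraries held 2165340 to 3206740 counts and the control libraries 3613229 and 4896371. Mitochondrial genes took 6.50%, 27.6% and 13.5% of the counts in nonpermissive replicates 1, 2 and 3, against 4.11% and 11.5% in control replicates 1 and 2. The 10 most abundant genes of a library took 15.2% to 34.3% of the counts in nonpermissive libraries and 10.4% and 17.9% in control libraries. In all 3 groups at 48 h, replicate 1 had the lowest mitochondrial share and its counts lay on longer transcripts than those of the others. Spearman correlations over genes were 0.904 to 0.919 between nonpermissive libraries, 0.904 between the control libraries and 0.881 to 0.929 across these groups, so nonpermissive and control libraries were about as alike as libraries of 1 group. As a check of the label, Tecta, Gjb2 and other genes of cochlear supporting cells were abundant in both groups.

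Few genes differed. By edgeR's quasi-likelihood test, 9 genes rose and 17 fell at an adjusted p under 0.05, 26 of 13411 genes (0.194%; 0.0671% upward and 0.127% downward). For each of the 26, all nonpermissive libraries lay on 1 side of both control libraries, which was also so for 10.1% of all tested genes upward and 10.4% downward. At an unadjusted p under 0.05 there were 986 genes (7.35%), 483 higher (3.60%) and 503 lower (3.75%). In the same fit, permissive and nonpermissive cells differed in 1761 genes (13.1%; 6.78% higher and 6.35% lower in permissive cells). The median log2 fold change over all genes was 0.0046. Values are given for all 26 called genes; those outside the rule for named genes, such as Miat, Syt6 and Nos1, were added after their values were seen. In 15 of the 26 the RefSeq span overlaps another gene (Gm35040 and mt-Nd3 had no entry), and the counting is not stated to use strand, so reads of the partner cannot be told apart. CPM below is the count scaled to a fixed library size after TMM scaling, and a fold change is given as log2 with its standard error (SE).

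**Figure D1:**
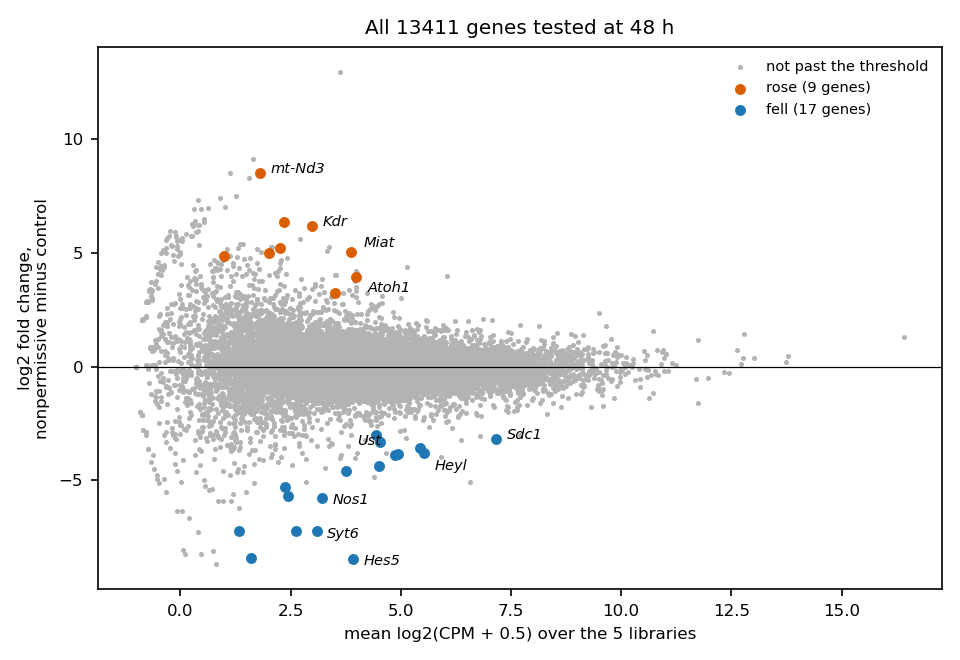
Log2 fold change, nonpermissive minus control, against the mean log2(CPM + 0.5) over the 5 libraries, for all 13411 genes tested at 48 h. Orange points are the 9 genes that rose and blue points the 17 that fell; grey points did not pass the threshold. Folds of genes with no count in a group, such as mt-Nd3, depend on the fit's prior count.

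The number of calls depended on single libraries. Without control replicate 2 there were 4 calls (0 upward, with 749 genes at an unadjusted p under 0.05 in both directions, and limma-voom on all libraries also called 0 upward), and without nonpermissive replicate 3 there were 2, Miat and Nos1. Without control replicate 1, nonpermissive replicate 1 or nonpermissive replicate 2 there were 22, 13 and 14. DESeq2 called 155, among them all of the 26 but Gm35040. With only the libraries of both groups, 22 of the 26 were kept, without Calb2, Dlk2, Scn11a and Tmem255b, and limma-voom kept 11, all of them falls. All 26 genes kept their direction in every alternative run.

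**Figure D2:**
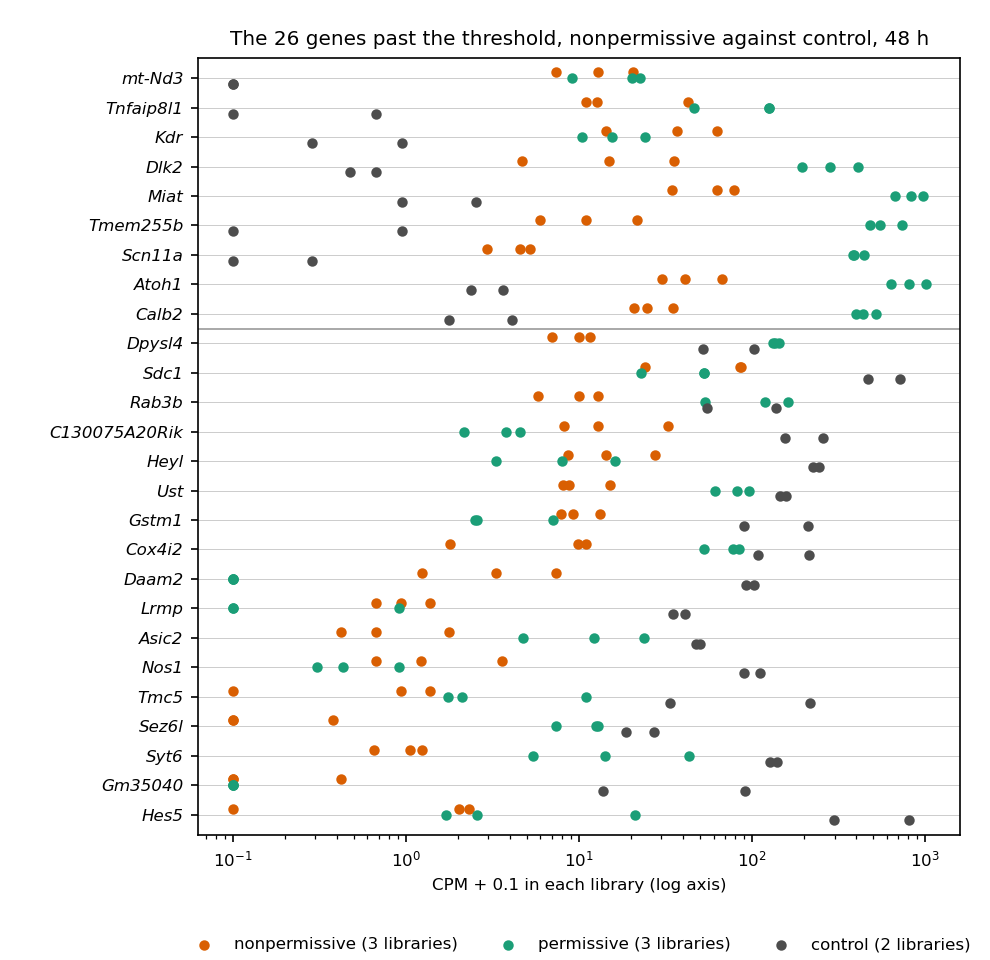
CPM + 0.1 on a log axis in each library at 48 h for the 26 genes past the threshold, with nonpermissive libraries in orange, permissive in green and control in grey. Genes above the grey line rose and those below it fell in nonpermissive against control cells; for each, the orange points lie on 1 side of the grey ones.

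Transcripts of Notch target genes were lower in nonpermissive cells. Hes5, a helix-loop-helix repressor induced by Notch (chr4:154960626-154962372, mm10), was at 2.23, 0 and 1.92 CPM in nonpermissive replicates 1 to 3, against 298 and 813 CPM in control replicates 1 and 2. Every nonpermissive library was far below both control libraries. The log2 fold change was −8.45 ± 1.10 (edgeR adjusted p = 0.00647). Without nonpermissive replicate 3 its adjusted p was 0.0559. Permissive cells, at 2.48, 21.1 and 1.62 CPM, did not differ from nonpermissive cells past the threshold (permissive minus nonpermissive 2.39 ± 0.96, edgeR adjusted p = 0.125).

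The other target that fell was Heyl, a repressor of the Hey family (chr4:123233556-123249870). It was at 14.2, 8.56 and 27.5 CPM in nonpermissive libraries, against 226 and 243 CPM in control libraries, with no overlap. Heyl had a log2 fold change of −3.79 ± 0.63 (edgeR adjusted p = 0.0267); leaving out any 1 of the 5 libraries gave 0.0632 to 0.139. Heyl RNA was still detected in every nonpermissive library, as in the permissive ones (7.84, 16.1 and 3.23 CPM).

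The repressors Hey1, Hey2 and Hes1 were lower without passing the threshold. Hey1 was at 156, 68.5 and 78.4 CPM in nonpermissive libraries, against 1249 and 375 CPM in control libraries (log2 fold change −3.0 ± 0.67, edgeR adjusted p = 0.139). Hey2 was at 73.7, 39.4 and 33.0 CPM in nonpermissive libraries, against 221 and 91.6 CPM in control libraries (−1.68 ± 0.60, edgeR adjusted p = 0.488). Their groups did not overlap, nor did those of Hes1, at 15.1, 13.7 and 8.64 CPM in nonpermissive libraries, against 41.9 and 35.9 CPM in control libraries (−1.64 ± 0.61, edgeR adjusted p = 0.524). Nrarp, a feedback inhibitor of Notch, overlapped, with 39.1, 5.14 and 41.6 CPM in nonpermissive libraries, against 122 and 12.8 CPM in control libraries, and its sign turned without control replicate 1. Of 8 listed targets 7 were tested: 0 rose, 2 fell, and 5 had an unadjusted p under 0.05 downward, beside 3.75% of all genes. Their median log2 fold change was −1.68, beside 0.0046 over all genes tested. The summed level of the list was 360, 150 and 233 CPM in nonpermissive libraries, 98.2, 76.0 and 32.3 CPM in permissive libraries, and 2214 and 1602 CPM in control libraries.

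RBPJ is known to bind DNA at GTGGGAA, and the promoters of Hes5 and Hey2, taken from RefSeq (GRCm38.p6), are shown around these letters, since of the Notch targets with a promoter in the table these held a match. Each line gives 30 bases on the gene's strand, with the 7 letters of the match in capitals, read as GTGGGAA or, on the other strand, TTCCCAC.
Hes5, chr4:154960685-154960714, + strand: agggcgagcgcgTTCCCACagcccggacat
Hes5, chr4:154960828-154960857, + strand: tggccgccgagtGTGGGAAcggccgcggcg
Hey2, chr10:30842973-30843002, - strand: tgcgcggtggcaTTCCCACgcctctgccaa
The first Hes5 match lay 226 to 220 bases before the start used in the promoter table (position 154960923) and the second 83 to 77 bases before it. The RefSeq gene span given above begins at 154960626, so both Hes5 windows lie inside that span. The Hey2 match lay 207 to 201 bases before its start. Of the listed Notch targets, Nrarp and Dtx1 also had a promoter in the table, with 0 matches each. Of 32851 RefSeq promoters, 5.42% held GTGGGAA on either strand within the 250 bases before the start, and 0.161% held 2 or more matches. Of the 26 called genes 17 had a promoter in the table, and 3 of these held a match, Hes5, Asic2 and Kdr. A gene was counted here if any of its promoters matched, whereas 5.42% is a share of single promoters. A match is a description of the letters and does not show binding.

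No receptor or other part of the Notch machinery passed the threshold, which 0.194% of all genes did. Of 20 genes tested, 0 rose and 0 fell, and 4 had an unadjusted p under 0.05, all lower, beside 3.75% of all genes. The median log2 fold change was −0.23 (−0.50 to −0.06 without any 1 library). Notch3, a receptor, was at 32.1, 13.7 and 41.0 CPM in nonpermissive libraries, against 141 and 154 CPM in control libraries (−2.34 ± 0.69, edgeR adjusted p = 0.322). Notch1, the receptor of most supporting cells, was at 496, 105 and 223 CPM in nonpermissive libraries, against 527 and 755 CPM in control libraries (−1.22 ± 0.54, edgeR adjusted p = 0.658). Jag1, the ligand that supporting cells themselves carry, was at 218, 307 and 214 CPM in nonpermissive libraries, against 488 and 371 CPM in control libraries (−0.80 ± 0.40, edgeR adjusted p = 0.712), and was lower still in permissive cells (permissive minus nonpermissive −2.59 ± 0.38, edgeR adjusted p = 0.000665). Lfng, which modifies Notch receptors and drives the sort label, was at 98, 79.9 and 154 CPM in nonpermissive libraries, against 237 and 486 CPM in control libraries (−1.71 ± 0.48, edgeR adjusted p = 0.273).

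A low level of early hair cell transcripts was present in nonpermissive cells although they were sorted without Atoh1-GFP. Atoh1 itself (chr6:64729125-64731245) was at 30.2, 41.1 and 67.2 CPM in nonpermissive libraries, against 3.55 and 2.28 CPM in control libraries. All 3 nonpermissive libraries were above both control libraries and far below the permissive ones, at 804, 1008 and 635 CPM. Against control the log2 fold change of Atoh1 was 3.95 ± 0.57 (edgeR adjusted p = 0.0127; 0.0559 to 0.166 without control replicate 1, control replicate 2 or nonpermissive replicate 3). The permissive minus nonpermissive difference was 4.14 ± 0.46 (edgeR adjusted p = 0.000115). In a bulk library, a small number of cells with much Atoh1 RNA and many cells with little of it cannot be told apart, here or for any gene below.

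Other called genes had the same order of groups, and they are put together here by that order, as a description. Of these, Calb2 and Dlk2 stand in the hair cell lists, and Miat, Scn11a, Tmem255b and Tnfaip8l1 in none of them. Miat, a long noncoding RNA (chr5:112213228-112228948), was at 62.5, 34.3 and 78.7 CPM in nonpermissive libraries, 671, 970 and 826 CPM in permissive libraries, and 2.43 and 0.856 CPM in control libraries. It rose by 5.07 ± 0.64 against control (edgeR adjusted p = 0.00569; 0.0821 without control replicate 2). Calb2, the calcium-binding protein calretinin of hair cells, was at 20.7, 34.8 and 24.6 CPM in nonpermissive libraries, 440, 517 and 399 CPM in permissive libraries, and 1.68 and 3.99 CPM in control libraries. Calb2 rose by 3.25 ± 0.55 (edgeR adjusted p = 0.0267; 0.0574 to 0.217 without any 1 of the 5 libraries). Dlk2, a membrane protein related to the Notch ligands, was at 14.8, 4.57 and 35.5 CPM in nonpermissive libraries, 283, 409 and 194 CPM in permissive libraries, and 0.374 and 0.571 CPM in control libraries. Dlk2 rose by 5.24 ± 0.93 (edgeR adjusted p = 0.0391; 0.0777 to 0.229 without control replicate 1 or 2 or nonpermissive replicate 1 or 3). Its call was also lost with a replicate block and with only the libraries of both groups, with adjusted p values of up to 0.377 over all alternatives. Its span overlaps Abcc10.

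For 3 more, control cells held 1 to 3 counts in all. Scn11a, a sodium channel subunit, was at 4.47, 2.85 and 5.12 CPM in nonpermissive libraries, 381, 387 and 444 CPM in permissive libraries, and 0.187 and 0 CPM in control libraries. The ratio of nonpermissive to control was 38.7, with a 95% counting interval of 6.53 to 1570 (edgeR adjusted p = 0.0267; 0.0777 to 0.207 without control replicate 1 or 2 or nonpermissive replicate 1 or 3). Tmem255b, a transmembrane protein that overlaps Gas6, was at 5.86, 10.8 and 21.4 CPM in nonpermissive libraries, 481, 739 and 550 CPM in permissive libraries, and 0 and 0.856 CPM in control libraries (ratio 37.3, interval 12.4 to 184, edgeR adjusted p = 0.0494). Of all calls this was nearest to the threshold, and it was lost in 9 of 16 alternatives, with adjusted p values of 0.0543 to 0.222 without control replicate 1 or 2, nonpermissive replicate 2 or 3, or permissive replicate 2. Tnfaip8l1, a relative of the tumour necrosis factor-induced protein TNFAIP8 that overlaps Mydgf, was at 10.9, 12.6 and 42.9 CPM in nonpermissive libraries, 46.2, 126 and 126 CPM in permissive libraries, and 0 and 0.571 CPM in control libraries. Its ratio of nonpermissive to control was 102, with an interval of 27.9 to 849 (edgeR adjusted p = 0.0391; 0.0863 to 0.2 without control replicate 1 or 2 or nonpermissive replicate 2 or 3).

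As lists, hair cell genes were higher with few calls. Of 7 ligands and partners of the hair cell lineage, 1 rose (Dlk2), 6 had an unadjusted p under 0.05 upward, and the median log2 fold change was 3.23. Over all tested genes, 3.60% had such a p upward and the median was 0.0046. Dll1, a ligand, had 0 counts in both control libraries and 6.70, 2.85 and 50.9 CPM in nonpermissive libraries, at least 28.4-fold higher with 3 counts per library as the floor (edgeR adjusted p = 0.0704). That bound rests on nonpermissive replicate 3, and without it was at least 6.74-fold. Hes6, a positive factor beside Atoh1, was at 35.7, 25.7 and 71.4 CPM in nonpermissive libraries, against 5.80 and 7.99 CPM in control libraries (2.69 ± 0.56, edgeR adjusted p = 0.103). Of 14 hair cell transcription and splicing factors, 1 rose (Atoh1), 5 had an unadjusted p under 0.05 upward and 0 downward, and the median was 1.01 (0.89 to 2.22 without any 1 library, the highest without control replicate 2). The filter took in the permissive libraries, where such genes are high. With only the libraries of both groups, Barhl1 and Gfi1 did not pass it. In the fit of all 48 h libraries Neurod6 had a log2 fold change and an SE of 0. So had Fscn2 and Slc26a5 among the bundle, synapse and channel genes. The list values thus rest partly on genes let in by permissive libraries.

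Pou4f3, which keeps hair cells alive, was at 24.6, 42.3 and 44.2 CPM in nonpermissive libraries, 2174, 2845 and 2268 CPM in permissive libraries, and 7.29 and 11.4 CPM in control libraries (nonpermissive minus control 1.98 ± 0.48, edgeR adjusted p = 0.171). Gfi1, a zinc finger factor, stayed at 1.12, 2.28 and 1.28 CPM in nonpermissive libraries, against 0.374 and 0 CPM in control libraries, while permissive libraries held 97.8, 151 and 129 CPM. Barhl1, a homeodomain factor, was at 2.23, 1.14 and 5.12 CPM in nonpermissive libraries and had no count in control libraries, at least 4.0-fold higher (edgeR adjusted p = 0.0661), or at least 2.38-fold without nonpermissive replicate 3. Among 43 bundle, synapse and channel genes 1 rose (Calb2). At an unadjusted p under 0.05, 13 were higher and 0 lower, beside 3.60% and 3.75% of all genes. The median was 0.85. Without any 1 library that median was 0.34 (nonpermissive replicate 2 left out, with 2 members lower) to 1.47 (control replicate 2 left out), with 5 to 14 members higher; with only the libraries of both groups it was 0.32 over 23 genes, with 0 rises by edgeR's test and 7 at an unadjusted p under 0.05. Myo7a, the motor of the hair bundle, overlapped between groups, with 6.42, 10.3 and 12.2 CPM in nonpermissive libraries, against 6.17 and 16.5 CPM in control libraries (−0.23 ± 0.51, edgeR adjusted p = 0.978).

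**Figure D3:**
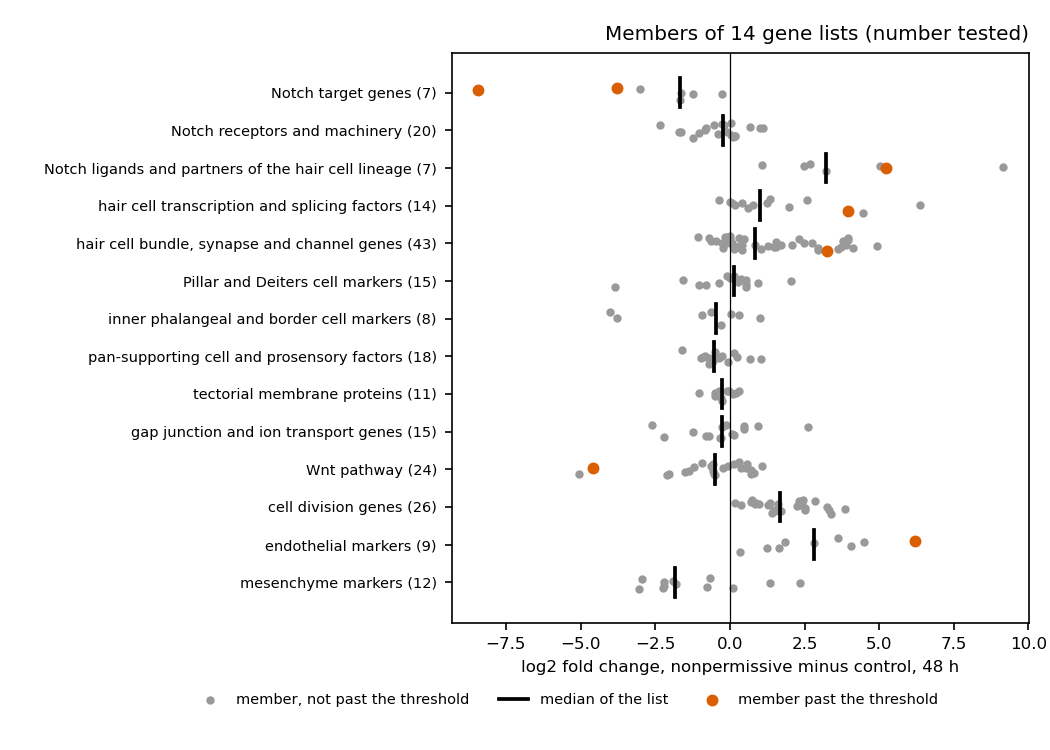
Log2 fold change, nonpermissive minus control at 48 h, of the tested members of 14 gene lists, with the number tested in brackets. Grey points did not pass the threshold, orange points did, and black bars are list medians. Notch targets lie below 0, and members of the hair cell lineage, cell division and endothelial lists lie mostly above it.

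A set of 7 genes fell in nonpermissive cells and was higher in permissive than in nonpermissive cells, by the test between these groups. Both tests use the same nonpermissive libraries, so a low value there enters both and the second test is not separate evidence. Syt6, a synaptotagmin of membrane traffic (chr3:103575245-103645567), was at 0.558, 1.14 and 0.960 CPM in nonpermissive libraries, 43.1, 5.36 and 14.2 CPM in permissive libraries, and 140 and 128 CPM in control libraries. Against control Syt6 had a log2 fold change of −7.25 ± 0.87 (edgeR adjusted p = 0.00569; 0.0551 without nonpermissive replicate 3), and permissive minus nonpermissive was 4.58 ± 0.80 (edgeR adjusted p = 0.00201). Ust, a sulfotransferase that modifies chondroitin and dermatan sulfate chains (chr10:8204753-8518825), was at 15.1, 7.99 and 8.64 CPM in nonpermissive libraries, 82.1, 60.9 and 95.4 CPM in permissive libraries, and 158 and 145 CPM in control libraries. Nonpermissive libraries were thus lowest and control libraries highest, with no overlap among the 3 groups. Ust fell by 3.82 ± 0.48 (edgeR adjusted p = 0.00569; 0.0559 without nonpermissive replicate 3), and permissive minus nonpermissive was 2.89 ± 0.44 (edgeR adjusted p = 0.000862).

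Dpysl4, a cytoskeletal protein of the collapsin response family, was at 11.4, 6.85 and 9.92 CPM in nonpermissive libraries, 137, 132 and 144 CPM in permissive libraries, and 52.0 and 102 CPM in control libraries. Here permissive libraries were the highest and nonpermissive ones the lowest. Dpysl4 fell by 3.01 ± 0.47 against control (edgeR adjusted p = 0.0199; 0.0746 to 0.178 without control replicate 2 or any 1 nonpermissive library), and permissive minus nonpermissive was 3.85 ± 0.46 (edgeR adjusted p = 0.000168). Rab3b, a small GTPase of regulated secretion, was at 12.8, 5.71 and 9.92 CPM in nonpermissive libraries, 53.7, 161 and 119 CPM in permissive libraries, and 55.0 and 138 CPM in control libraries. Permissive and control libraries overlapped, and nonpermissive ones lay below both (nonpermissive minus control −3.31 ± 0.59, edgeR adjusted p = 0.0393; 0.109 to 0.335 without control replicate 2 or any 1 nonpermissive library).

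Cox4i2, an isoform of a cytochrome c oxidase subunit whose gene overlaps Bcl2l1, was at 9.77, 1.71 and 10.9 CPM in nonpermissive libraries, 83.8, 77.7 and 52.6 CPM in permissive libraries, and 109 and 215 CPM in control libraries (nonpermissive minus control −4.38 ± 0.63, edgeR adjusted p = 0.0127; 0.0559 and 0.0821 without nonpermissive replicate 3 or control replicate 2). Asic2, an acid-sensing ion channel, was at 1.68, 0.571 and 0.320 CPM in nonpermissive libraries, 23.7, 4.69 and 12.1 CPM in permissive libraries, and 50.3 and 47.6 CPM in control libraries (−5.70 ± 0.86, edgeR adjusted p = 0.0174; 0.0770 to 0.0992 without control replicate 2 or nonpermissive replicate 2 or 3). Sez6l, a transmembrane protein known from neurons, had 1 count in the nonpermissive libraries together. It was at 0.279, 0 and 0 CPM there, at 12.8, 12.4 and 7.28 CPM in permissive libraries, and at 18.5 and 27.1 CPM in control libraries. The ratio of control to nonpermissive was 185, with a 95% counting interval of 32.9 to 7358 (edgeR adjusted p = 0.0127; 0.0666 and 0.0770 without control replicate 2 or nonpermissive replicate 3).

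The remaining called falls were not higher in permissive than in nonpermissive cells past the threshold. Nos1, the neuronal nitric oxide synthase (chr5:117866839-117958840), was at 1.12, 0.571 and 3.52 CPM in nonpermissive libraries, 0.206, 0.335 and 0.809 CPM in permissive libraries, and 111 and 90.2 CPM in control libraries. It fell by 5.76 ± 0.72 (edgeR adjusted p = 0.00569), and this was the call that held in all 16 alternatives, with adjusted p values of at most 0.0499. Gstm1, a glutathione transferase, was at 7.82, 9.14 and 13.1 CPM in nonpermissive libraries, 2.48, 7.03 and 2.43 CPM in permissive libraries, and 89.8 and 211 CPM in control libraries (nonpermissive minus control −3.90 ± 0.61, edgeR adjusted p = 0.0199; 0.0762 to 0.189 without control replicate 2 or any 1 nonpermissive library). Tmc5, a membrane protein of the transmembrane channel-like family, was at 0.838, 0 and 1.28 CPM in nonpermissive libraries, 1.65, 2.01 and 10.9 CPM in permissive libraries, and 33.5 and 217 CPM in control libraries (nonpermissive minus control −7.23 ± 1.10, edgeR adjusted p = 0.0174; 0.0762 to 0.181 without control replicate 2 or any 1 nonpermissive library).

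Sdc1, a heparan sulfate proteoglycan of the cell surface, was the most abundant of them in control cells. It was at 86.6, 24.0 and 84.8 CPM in nonpermissive libraries, 52.6, 22.8 and 52.6 CPM in permissive libraries, and 466 and 719 CPM in control libraries (nonpermissive minus control −3.18 ± 0.57, edgeR adjusted p = 0.0393; 0.0577 to 0.189 without any 1 of the 5 libraries). Lrmp, a membrane protein of the endoplasmic reticulum whose gene overlaps Casc1, was at 0.838, 0.571 and 1.28 CPM in nonpermissive libraries, 0, 0 and 0.809 CPM in permissive libraries, and 35.0 and 40.8 CPM in control libraries (nonpermissive minus control −5.30 ± 0.94, edgeR adjusted p = 0.0391; 0.122 to 0.199 without any 1 of the 5 libraries). Genes with no assigned name fell as well. Gm35040 had 1 count in the nonpermissive libraries, none in the permissive ones, and 13.7 and 90.7 CPM in control libraries (ratio of control to nonpermissive 374, interval 66.7 to 14792, edgeR adjusted p = 0.0244; 0.0942 to 0.458 without control replicate 2 or any 1 nonpermissive library). C130075A20Rik, which overlaps Lhfp, was at 8.10, 32.5 and 12.8 CPM in nonpermissive libraries, 2.06, 3.68 and 4.45 CPM in permissive libraries, and 154 and 258 CPM in control libraries (nonpermissive minus control −3.56 ± 0.60, edgeR adjusted p = 0.0286; 0.110 to 0.181 without control replicate 2 or nonpermissive replicate 1 or 3).

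In the Wnt list 1 of 24 genes tested passed the threshold. Daam2, a formin-like protein that acts with Dishevelled, was at 7.26, 1.14 and 3.20 CPM in nonpermissive libraries, had no count in permissive libraries, and was at 103 and 91.9 CPM in control libraries. Daam2 fell by 4.57 ± 0.71 (edgeR adjusted p = 0.0267; 0.0982 to 0.142 without control replicate 1 or 2 or nonpermissive replicate 2 or 3). Permissive cells were lower again (edgeR adjusted p = 0.00354). In the same list Fzd9, a Wnt receptor, was at 50.5, 47.4 and 84.8 CPM in nonpermissive libraries, against 195 and 306 CPM in control libraries (−2.04 ± 0.44, edgeR adjusted p = 0.119). The list had 4 members with an unadjusted p under 0.05, all lower, beside 3.75% of all genes. Its median was −0.51 (−0.67 to 0.10 without any 1 library, the highest without control replicate 1).

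Tecta, Fgfr3, Gjb2, Sox2 and Sox9, which mark supporting cells, overlapped between the groups. Other such markers were lower without passing the threshold, as given below. Tecta, the tectorin of the overlying tectorial membrane, was at 8691, 3371 and 4414 CPM in nonpermissive libraries, 117, 238 and 152 CPM in permissive libraries, and 8550 and 4884 CPM in control libraries (nonpermissive minus control −0.29 ± 0.50, edgeR adjusted p = 0.966). Fgfr3, a growth factor receptor of pillar and Deiters cells, was at 451, 387 and 462 CPM in nonpermissive libraries, 392, 384 and 446 CPM in permissive libraries, and 433 and 484 CPM in control libraries (nonpermissive minus control −0.08 ± 0.38, edgeR adjusted p = 0.997). Unlike Tecta and Gjb2, Fgfr3 was at a similar level in permissive cells (permissive minus nonpermissive −0.09 ± 0.34, edgeR adjusted p = 0.913). Gjb2, a connexin of gap junctions, was at 1117, 1049 and 876 CPM in nonpermissive libraries, 29.3, 77.7 and 74.8 CPM in permissive libraries, and 1332 and 876 CPM in control libraries (nonpermissive minus control −0.12 ± 0.47, edgeR adjusted p = 0.994). All 3 overlapped between nonpermissive and control libraries. The transcription factors Sox2 and Sox9, which mark prosensory cells, overlapped too, with log2 fold changes of −0.67 ± 0.47 and −0.47 ± 0.45 (edgeR adjusted p = 0.864 and 0.922). The SEs limit what these 5 libraries can show, and a smaller change in these genes was not detectable given the scatter among libraries.

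The lists of these markers had no call in either direction, where 0.194% of all genes were called, so lists of this size could show few. Medians were −0.25 for 11 tectorial membrane proteins, −0.25 for 15 gap junction and ion transport genes, −0.54 for 18 pan-supporting and prosensory factors, 0.15 for 15 Pillar and Deiters cell markers and −0.47 for 8 inner phalangeal and border cell markers. Without any 1 library the medians of these 5 lists lay between −0.81 and 0.15. All nonpermissive libraries lay below both control libraries for 0, 3, 5, 3 and 3 members of these lists, and above both for 0, 2, 1, 2 and 1. Over all tested genes these shares were 10.4% downward and 10.1% upward. Of the 18 pan-supporting and prosensory factors, 4 had a log2 fold change above 0. At an unadjusted p under 0.05 these lists had 0, 2, 0, 1 and 1 members higher, and 0, 2, 1, 2 and 3 lower. The lower ones included Fabp7, a lipid-binding protein of the glia-like inner phalangeal cells. It was at 1.95, 6.28 and 9.92 CPM in nonpermissive libraries, against 109 and 58.5 CPM in control libraries (−3.79 ± 0.76, edgeR adjusted p = 0.0755). The Pillar and Deiters cell marker Pdzk1ip1 was at 4.19, 5.14 and 2.88 CPM in nonpermissive libraries, against 51.8 and 66.2 CPM in control libraries (−3.86 ± 0.85, edgeR adjusted p = 0.130), and Prss23 of the same list had −1.59 ± 0.49 (edgeR adjusted p = 0.366). Outside these lists, Itga6, a laminin receptor of the basement membrane list, was at 470, 397 and 330 CPM in nonpermissive libraries, against 1754 and 966 CPM in control libraries (−1.77 ± 0.43, edgeR adjusted p = 0.171).

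Cell division genes were higher in nonpermissive cells as a list, without a single call. All 26 listed genes had a log2 fold change above 0, from 0.16 to 3.85, with a median of 1.68. Of these, 14 had an unadjusted p under 0.05, beside 3.60% of all genes upward. At the adjusted threshold 0 passed by edgeR's test, DESeq2 called 7 and limma-voom 0. In 19 of the 26 the groups did not overlap, beside 10.1% of all genes upward. Pole, a DNA polymerase subunit that is outside the list and was added after its values were seen, was at 243, 243 and 239 CPM in nonpermissive libraries, against 74.2 and 41.9 CPM in control libraries (2.05 ± 0.44, edgeR adjusted p = 0.119). Of the listed genes, Top2a, a topoisomerase of dividing cells, was at 48.3, 41.1 and 46.4 CPM in nonpermissive libraries, against 2.99 and 13.1 CPM in control libraries (2.51 ± 0.67, edgeR adjusted p = 0.233). The mitotic kinase Aurkb was at 20.1, 9.14 and 58.2 CPM in nonpermissive libraries, against 2.24 and 1.71 CPM in control libraries (3.85 ± 0.90, edgeR adjusted p = 0.171). The proliferation marker Mki67 was at 58.1, 25.7 and 31.4 CPM in nonpermissive libraries, against 9.16 and 4.85 CPM in control libraries (2.44 ± 0.75, edgeR adjusted p = 0.361). Without any 1 library, 10 to 14 of the 26 had an unadjusted p under 0.05 and the median was 1.66 to 1.88. The summed level was 840, 1017 and 1492 CPM in nonpermissive libraries, 762, 1331 and 875 CPM in permissive libraries, and 422 and 403 CPM in control libraries. Cdkn1a, an inhibitor of the cell cycle, was at 128, 82.2 and 99.5 CPM in nonpermissive libraries, against 29.5 and 52.2 CPM in control libraries (1.34 ± 0.51, edgeR adjusted p = 0.539), and Cdkn1b, the inhibitor that holds supporting cells out of the cycle, had −0.85 ± 0.60 (edgeR adjusted p = 0.863).

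Markers of blood vessels were also higher in nonpermissive libraries, and Kdr, the endothelial receptor for VEGF (chr5:75932827-75979072), was a call. Kdr was at 36.9, 14.3 and 62.4 CPM in nonpermissive libraries, 10.3, 24.1 and 15.4 CPM in permissive libraries, and 0.187 and 0.856 CPM in control libraries. Its log2 fold change was 6.21 ± 1.01 (edgeR adjusted p = 0.0266; 0.0707 to 0.151 without control replicate 1 or 2 or nonpermissive replicate 1 or 3). Of 9 endothelial markers tested, 1 rose, 6 had an unadjusted p under 0.05 upward, 9 were above 0, and the median was 2.82. Over all tested genes, 3.60% had such a p upward and the median was 0.0046. The defining endothelial genes Pecam1 and Cdh5 were at 46.4, 17.7 and 36.2 CPM and at 81.0, 27.4 and 52.2 CPM in nonpermissive libraries, against 1.5 and 2.57 CPM and 8.23 and 6.85 CPM in control libraries (edgeR adjusted p = 0.0840 and 0.210). The summed level of the 10 listed genes was 269, 120 and 291 CPM in nonpermissive libraries, against 22.4 and 69.3 CPM in control libraries. Members at 0 counts were 0, 0 and 1 in nonpermissive libraries, against 1 and 1 in control libraries. Without any 1 library 4 to 8 members had an unadjusted p under 0.05 and the median was 2.40 to 4.17. Endothelial sums in permissive libraries were 56.1, 77.3 and 166 CPM, overlapping the control libraries, and cell division sums there were above both control libraries. Single genes did not follow these sums. In permissive libraries Pecam1 (11.8, 5.69 and 19.8 CPM), Cdh5 (13.2, 9.37 and 32.8 CPM) and Kdr were above both control libraries. Permissive against control, edgeR adjusted p values were 0.0418, 0.262 and 0.00398 for Pecam1, Cdh5 and Kdr. Mki67, at 19.0, 4.35 and 11.7 CPM in permissive libraries, overlapped control. In the nonpermissive libraries both sums were above control, and the part of endothelial cells in the cell division values was not tested.

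Mesenchyme markers did not separate the groups but varied within them. Their summed level was 1430, 3441 and 1932 CPM in nonpermissive libraries, 233, 243 and 724 CPM in permissive libraries, and 651 and 2915 CPM in control replicates 1 and 2. Of 12 tested, 0 rose and 0 fell, 1 and 4 had an unadjusted p under 0.05 upward and downward, and the median was −1.85; without control replicate 2 the median was 0.92. Of the 12, 3 had a log2 fold change above 0. One of these was Lum, a matrix proteoglycan, at 901, 2524 and 1038 CPM in nonpermissive libraries, against 246 and 332 CPM in control libraries (2.36 ± 0.92, edgeR adjusted p = 0.563). Pdgfra, a growth factor receptor, went with the median, at 36.9, 32.5 and 37.4 CPM in nonpermissive libraries, against 67.9 and 199 CPM in control libraries (−1.90 ± 0.51, edgeR adjusted p = 0.233). Schwann and satellite glia markers (7 tested) had a median of −0.32, spiral ganglion neuron markers (7) 0.19, melanocyte and stria markers (3) 0.28, and blood and macrophage markers (7) 0.70, with no call in any of them. The summed level of blood and macrophage markers was 183, 426 and 522 CPM in nonpermissive libraries, against 137 and 448 CPM in control libraries.

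**Figure D4:**
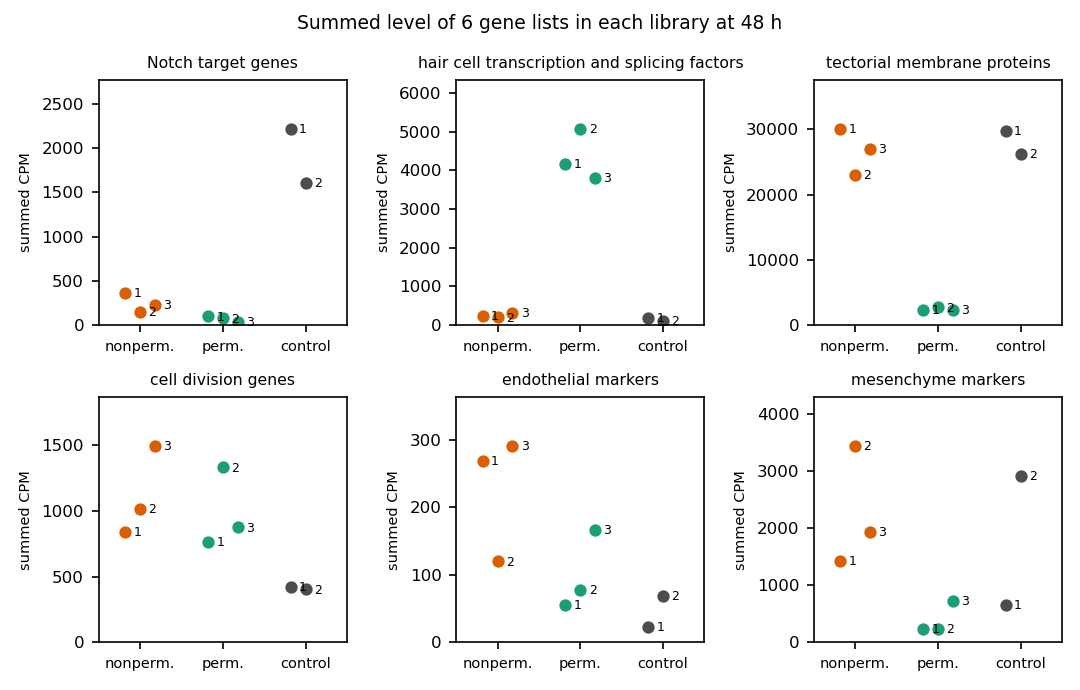
Summed CPM of 6 gene lists in each library at 48 h; numbers beside points are replicates. In the 3 nonpermissive libraries Notch targets sum to 150 to 360 CPM, against 1602 and 2214 CPM in control libraries, while tectorial membrane proteins lie in 1 range in both; cell division and endothelial sums are above both control libraries, and mesenchyme sums overlap.

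A mitochondrial gene of respiratory complex I, mt-Nd3, was among the calls. It was at 7.26, 20.6 and 12.8 CPM in nonpermissive libraries, 9.08, 22.4 and 20.2 CPM in permissive libraries, and had no count in either control library. With 3 counts per library as the floor it was at least 19.1-fold higher (edgeR adjusted p = 0.0267; 0.0762 to 0.164 without control replicate 1 or 2 or nonpermissive replicate 2 or 3). Mitochondrial genes together took 6.50%, 27.6% and 13.5% of nonpermissive and 4.11% and 11.5% of control counts, and the part of that share in the call was not tested. Nonpermissive replicate 1, at 6.50%, held 26 counts of mt-Nd3, and control replicate 2, at 11.5%, held 0. At 24 h mt-Nd3 was at 166, 174 and 153 CPM with DAPT and at 108, 138 and 121 CPM with DMSO. Why the 48 h control libraries held none was not tested. Among the 14 other lists, such as FGF, BMP and Hippo pathway genes, immediate early genes, cholesterol synthesis and glycolysis, no member rose or fell. Of their 245 tested entries, 9 had an unadjusted p under 0.05 upward and 12 downward, beside 3.60% and 3.75% of all genes. List medians ran from −0.41 (p53-linked and apoptosis genes) to 0.60 (nuclear genes of the respiratory chain).

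The called genes were compared with those that changed after 24 h of DAPT in the separate experiment on Lfng-GFP+ cells, where 1742 genes rose (11.5%) and 2158 fell (14.2%) of 15174. All 8 of the 9 risen genes that were tested at 24 h had risen there, mt-Nd3 by a log2 fold change of 0.43, and Kdr was not tested. Of the 17 fallen genes 16 had fallen there, and Dpysl4 had a log2 fold change of 0.10 (edgeR adjusted p = 0.427). These 24 genes were most of the 26 calls at 48 h and a small share of the 3900 calls at 24 h (25.7% of genes). Hes5 had −8.09 ± 0.31 at 24 h and −8.45 ± 1.10 at 48 h, Heyl −3.70 ± 0.18 and −3.79 ± 0.63, and Atoh1 3.25 ± 0.11 and 3.95 ± 0.57, where the earlier values are DAPT minus DMSO. Ust had −0.91 at 24 h and −3.82 at 48 h, and Syt6 −2.83 and −7.25. These pairs of effects were not tested against each other, since these experiments differed in duration, in the sorted cells and in library preparation, which cannot be told apart.

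**Figure D5:**
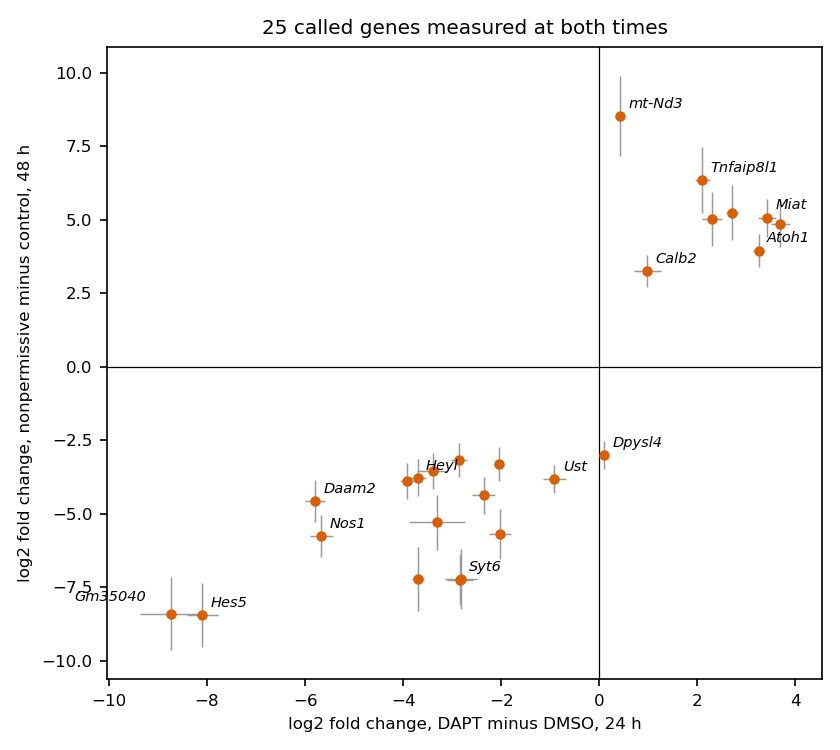
Log2 fold change at 48 h (nonpermissive minus control) against that at 24 h (DAPT minus DMSO) for the 25 called genes tested at both times, with bars of 1 SE. All but Dpysl4 have the same sign at both times; Dpysl4 is at 0.10 at 24 h and −3.01 at 48 h.

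Genes called at 24 h were shifted the same way in nonpermissive cells as whole groups. The 1637 genes that rose at 24 h and were tested at 48 h had a median log2 fold change of 0.22 at 48 h, 63.6% of them above 0, and 10.4% had an unadjusted p under 0.05 upward and 2.08% downward. The 1910 genes that fell at 24 h had a median of −0.43, 75.2% of them below 0, with 0.524% upward and 12.1% downward. The 9262 genes not past the threshold at 24 h had a median of 0.05, with 2.36% upward and 2.17% downward. Over all alternatives the median of the risen genes was 0.20 to 0.38 and that of the fallen genes −0.53 to −0.31.

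Chromatin at the starts of the called genes was compared in peak lists from other samples of the same sorts, 2 nonpermissive and 2 control for each assay. A peak within 1000 bases of a RefSeq start was counted, and 17 called genes had a start. All 4 ATAC lists, which mark open chromatin, held such a peak for 13 of the 17 genes, beside 91.1% of 10058 tested genes. No called gene had an ATAC peak in both lists of 1 group and in neither of the other, nor an H3K27ac peak, a mark of active promoters. The corresponding shares of all genes were 0.169% and 0.139% for ATAC and 3.28% and 0.447% for H3K27ac (nonpermissive without control, and control without nonpermissive). Hes5 had an ATAC peak in all 4 lists, with fold enrichments in the authors' deposited lists of 2.99 and 2.87 in nonpermissive and 3.12 and 2.75 in control samples. Its H3K27ac peak was in 1 of 2 nonpermissive lists and in both control lists. Atoh1 had an ATAC peak in all 4 lists and an H3K27ac peak in 1 nonpermissive list and in no control list. That list, of nonpermissive replicate 1, held 93900 peaks. The other nonpermissive H3K27ac list held 46284 and the control lists 57839 and 55391. The part of list size in these H3K27ac values was not tested. Nos1 had an ATAC peak in 1 control list alone. Ust and Daam2 were the 2 called genes of 17 with H3K27ac peaks in all 4 lists, beside 50.7% of all tested genes with a start.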

How the data were processed

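RNA-seq of sorted cochlear supporting cells was used, 8 libraries at 48 h and 6 at 24 h. The deposited tables give RSEM expected counts and TPM per gene; the expected counts were used and the TPM values were not. The submitters' processing notes name STAR, RSEM, DESeq2, Bowtie2, MACS2 and UMI-tools, with mm10 as the genome build; their versions were not given in the sources consulted. The deposited peak lists give a fold enrichment and −log10 q per peak, as made by the authors; these are the authors' own values, and the depth behind them is unknown.

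Expected counts were rounded to whole numbers. Genes passing filterByExpr were fitted with edgeR's quasi-likelihood test (edgeR 4.0.16, limma 3.58.1, R 4.3.3) on TMM-scaled libraries, all 8 libraries at 48 h in 1 fit and the 24 h libraries in another, with Benjamini-Hochberg adjustment over all genes tested. A call is an adjusted p under 0.05. Library totals at 48 h lay between 2165340 and 4896371 counts, and those of the earlier libraries between 10666000 and 13158859. Counting intervals are exact at 95% and, with the floor of 3 counts per library, cover counting error only. The script was tested on simulated data. Symbols were found for 48349 of 48709 gene IDs; 63 symbols stand on more than 1 ID. The rule for named genes took, from the calls, up to 12 rises and 12 falls of greatest size with a curated symbol, no overlap between groups and a mean log2(CPM + 0.5) of at least 4, up to 4 members of each list, and a set of Notch, hair cell and supporting cell genes. The members and the 32 lists were chosen with earlier results of these data known. Alternatives were other scalings and filters, DESeq2 1.42.0, limma-voom, a fit of the 2 groups alone, a replicate block and leaving out each library. Promoter sequences are from RefSeq (GRCm38.p6).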

Additional observations from a re-analysis of the deposited data

Results flagged for a closer look

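Of the 26 called genes, 16 also differed between permissive and nonpermissive cells by edgeR's test of that difference, which is why they are listed. Over all tested genes 13.1% did. The 26 were called with the same nonpermissive libraries that enter this test, so the 16 are not separate evidence. Values are log2, permissive minus nonpermissive, with the edgeR adjusted p. Among genes that had risen in nonpermissive cells, the difference was 6.56 for Scn11a (2.50e-05), 5.53 for Tmem255b (0.000141), 4.14 for Atoh1 (0.000115), 4.09 for Calb2 (0.000109), 3.99 for Dlk2 (0.00101), 3.81 for Miat (0.000216) and 2.16 for Tnfaip8l1 (0.0458). Among genes that had fallen, it was 6.17 for Sez6l (0.00112), 4.58 for Syt6 (0.00201), 3.86 for Asic2 (0.00595), 3.85 for Dpysl4 (0.000168), 3.52 for Rab3b (0.0012), 3.20 for Cox4i2 (0.00246) and 2.89 for Ust (0.000862). Permissive cells were lower still for C130075A20Rik, at −2.39 (0.0167), and Daam2, at −6.82 (0.00354); Daam2 had no count in permissive libraries, so its value depends on the fit's prior count. Permissive cells were sorted for Atoh1-GFP and nonpermissive cells against it, so the Atoh1 difference follows the sort.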

How the results depend on the processing

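All 26 calls kept their direction in every alternative run. The count of calls (26; 9 rose, 17 fell) was 302 (129 and 173) with no filter beyond 1 count, where 21670 genes were tested, 155 (78 and 77) by DESeq2, 11 (0 and 11) by limma-voom, which had 839 genes at an unadjusted p under 0.05, and 49 (13 and 36, keeping 22 of the 26) with only the libraries of both groups; the cause was not tested. Without any 1 library it was 2 to 40, with 0 to 14 rises and 1 to 26 falls. At 24 h the count was 2573 to 4948 without any 1 library, the lowest without DAPT replicate 1. With a replicate block the count was 36 (12 and 24), keeping all of the 26 but Dlk2. All 7 same-numbered pairs of deviations correlated above 0, at 0.336 and 0.0113 between nonpermissive and control, 0.512 and 0.198 between permissive and control, and 0.576, 0.152 and 0.127 between permissive and nonpermissive. As 1 was under 0.1 and nonpermissive replicate 3 correlated better with permissive replicate 2 (0.187), the shared number was not read as a pairing. For replicates 2 and 3 it is a hint at most. Replicate 1 libraries correlated at 0.336, 0.512 and 0.576 with each other, and below 0 with other numbers in other groups. The deviations of the 2 control libraries mirror each other, so their pairs are not separate evidence. Whether replicate 1 libraries share a batch was not tested. Fgfr3 turned to 0.010 under upper quartile scaling. Without any 1 library, log2 fold changes crossed 0 for Nrarp (−2.13 to 1.16), Col2a1 (−1.03 to 0.24), Tecta (−0.79 to 0.17), Myo7a (−0.79 to 0.57) and Gjb2 (−0.46 to 0.21). A stricter −log10 q of 2, chosen after seeing the data, left H3K27ac peaks in all 4 lists for 1 called gene in place of 2, beside 35.3% and 50.7% of all tested genes. Depth limits low genes most: calls such as Scn11a and Sez6l rest on few counts in 1 group.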
